A study of Homo sapiens with 6 samples.

Results

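PLEC, FLNC and KRT81 are 3 genes of the cytoskeleton whose RNA carried eCLIP peaks of G4PID in HEK293T, an established human line of embryonic kidney origin. They were chosen because they carried such peaks, so peak counts and folds are given here as a description. A peak was counted for a gene when its midpoint lay inside the gene on the same strand. This gave 19 of the 270 G4PID peaks, 14 in PLEC, 3 in KRT81 and 2 in FLNC, and 0 of the 3660 SF3B4 peaks. G4PID is an artificial biotin ligase that is directed to G-quadruplexes, four-stranded folds of guanine-rich nucleic acid, and it was recovered through an antibody against the HA tag. SF3B4, a splicing factor of the U2 small nuclear ribonucleoprotein, was recovered with an antibody of its own. The libraries were 2 for G4PID, 2 for SF3B4 and 2 for input, which had no antibody. Whether the 2 libraries per group are separate cultures is not in the labels. They give 1 protocol for all groups, in which cells took up a plasmid for G4PID or for the untargeted ligase miniTurboID, grew for 24 h and received 500 µM biotin for 30 min, and the labels do not say which of these steps the SF3B4 and input cells shared. No library of miniTurboID was analysed here.

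The authors deposited 1 list of peaks per antibody. Each peak has a fold over input on the log2 scale and a −log10 p, both made by the authors and read here from column order and range, since the lists have no header. No value per library was used here, so no spread between replicates, no read depth and no test of a difference can be given, and peaks of 1 gene are not replicates of each other. Of 19907 protein-coding genes, 99 (0.497%) had a G4PID peak and 1770 (8.89%) had an SF3B4 peak. The 3 genes were chosen from the first group, and none of them is in the second.

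Plectin, the product of PLEC, is a very large plakin that ties intermediate filaments to actin, to microtubules and to hemidesmosomes and other membrane junctions. Its largest internal exon encodes the coiled-coil rod, and its last exon encodes the C-terminal plakin repeats that hold the intermediate filament binding site. Filamin C, the product of FLNC, crosslinks actin filaments and is best known from the Z-discs of striated muscle. KRT81 encodes a type II keratin of hair, which pairs with type I keratins to build intermediate filaments. Plectin binds keratin filaments, the filament type that KRT81 belongs to, while filamin C acts on actin. Whether plectin and the KRT81 protein meet in these cells was not measured here.

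The sequences below are those under G4PID peaks of FLNC and KRT81, read from the annotated transcripts of GENCODE release 29 on hg38, 5′ to 3′ in the sense of the RNA. The first is shown because its core also stands in transcripts of many other genes, and its capitals mark the AC repeat. The others are the 30 nt around the highest quadruplex score (G4Hunter, explained with the scores) inside each coding peak of KRT81, shown because the only window to pass that score's threshold belongs to the first of these peaks, and their capitals mark runs of 2 or more G.
FLNC peak 2, 3'UTR, chr7:128858573-128858602, plus strand: cattACACACACACACACACACACACaaat
KRT81 peak 1, coding, chr12:52286386-52286415, minus strand: gcagcgctccgtgcaacGGGaacgtGGcGG
KRT81 peak 2, coding, chr12:52286296-52286325, minus strand: gcGGcgtGGGctcctgtGGtatcagctccc
The FLNC stretch holds 11 AC units and 0 G. Each KRT81 stretch holds 3 runs of 2 or more G, and 1 of these runs reaches 3 G. The KRT81 stretch of peak 1 has 13 G and 9 C among its 30 bases, and that of peak 2 has 11 G and 10 C.

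In PLEC and KRT81 most peaks lay in the last exon, and in FLNC 1 of 2 did. Of the 19 peaks, 16 (84.2%, 95% Wilson interval 62.4 to 94.5%) had their midpoint in the last exon of the transcript with the longest coding sequence, which served as the reference transcript of each gene. Of the 17 exonic peaks, 16 were in a last exon. In the rest of the list, 51 of 168 peaks in protein-coding genes with 2 or more exons (30.4%, 23.9 to 37.7%) lay in the last exon, and 51 of 107 exonic ones did. PLEC held 12 of its 14 peaks there, KRT81 3 of 3 and FLNC 1 of 2, so the joint share describes mainly PLEC. The last exon made up 47.5% of the reference transcript in PLEC, 30.1% in KRT81 and 10.2% in FLNC. No such length share is given for the rest of the list. The intervals cover counting error only and treat peaks of 1 gene as separate, and the difference from the rest of the list was not tested.

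**Figure D1:**
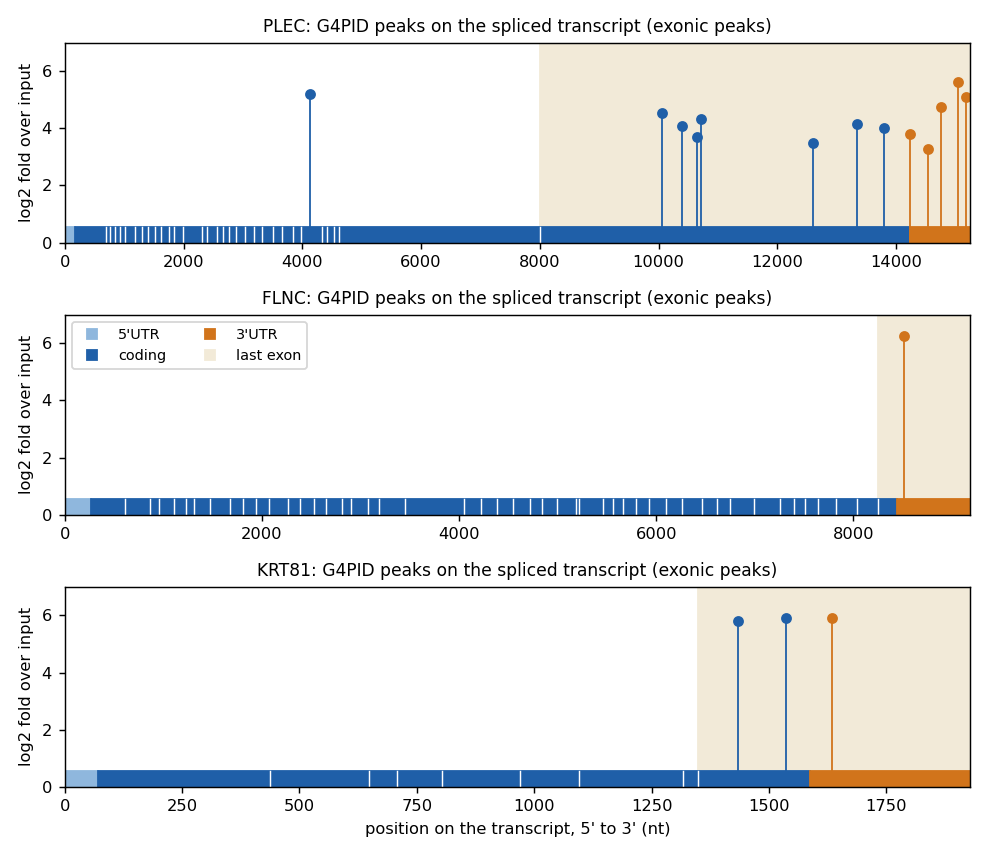
Exonic G4PID peaks on the spliced reference transcripts of PLEC, FLNC and KRT81, with transcript position in nt on the horizontal axis and the authors' log2 fold over input on the vertical axis. The bar at the base shows 5'UTR, coding sequence and 3'UTR with exon ends as white lines, and the shaded last exons hold 12 of 13 exonic PLEC peaks, the single FLNC one and all 3 of KRT81.

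Coding sequence held 10 of the 19 midpoints (52.6%), the 3'UTR 7 (36.8%), introns 2 (10.5%) and the 5'UTR 0. In the rest of the list in protein-coding genes, coding sequence held 54 of 172 peaks (31.4%), the 3'UTR 36 (20.9%), introns 61 (35.5%) and the 5'UTR 21 (12.2%). PLEC had 8 coding peaks, 5 in the 3'UTR and 1 in an intron. Its introns make up 73.3% of the gene, its coding sequence 23.9% and its 3'UTR 1.67%. Per kb of each class this came to 4.85 peaks in the PLEC 3'UTR, 0.543 in its coding sequence and 0.0222 in its introns. KRT81 had 2 coding peaks and 1 in the 3'UTR, in a gene that is 65.7% intron and 6.08% 3'UTR. FLNC had 1 peak in the 3'UTR, which is 2.60% of the gene, 1 in an intron, and 0 in the 8178 nt of its coding sequence. These lengths are of the gene as annotated, and the share of spliced and unspliced RNA in the cells was not measured here.

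**Figure D2:**
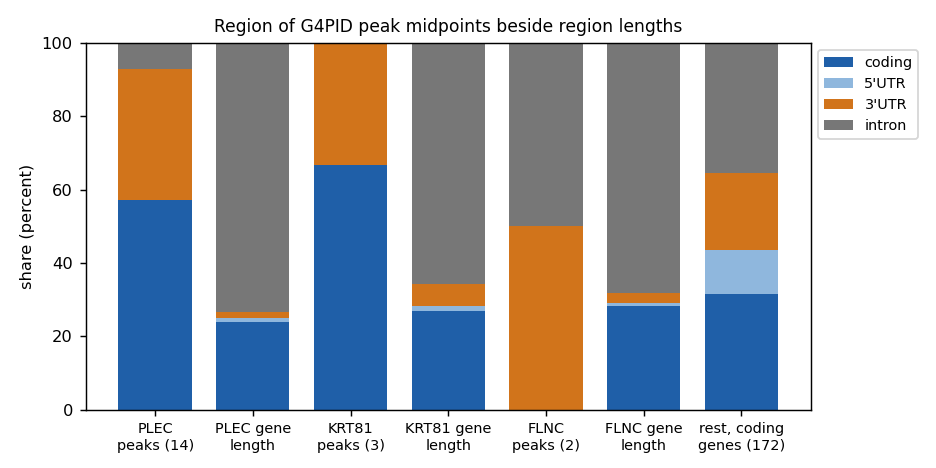
Share in percent of G4PID peak midpoints by region for PLEC, KRT81 and FLNC, each beside the share of gene length in the same regions, and for the rest of the list in protein-coding genes. Introns take 73.3% of the PLEC gene and 7.14% of its peaks, and the 3'UTR takes 1.67% of the gene and 35.7% of the peaks.

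PLEC lies on the minus strand of chromosome 8, 143915147 to 143976734 on hg38, and its reference transcript PLEC-201 has 32 exons, 15249 nt and a coding sequence of 14055 nt. Among 19907 protein-coding genes this coding sequence ranked at 44 by length. The last exon has 7243 nt, 47.5% of the transcript, and held 1.66 peaks per kb. The 31 exons before it add up to 8006 nt and held 1 peak. Exon 31, which encodes the rod and has 3381 nt, held 0. All 10 transcripts of the basic annotation set include in an exon each of the 7 coding peaks of the last exon, and 9 include the 5 peaks of the 3'UTR. No exonic PLEC peak lay in an exon that some of the transcripts spanning it skip.

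Within the last exon of PLEC, the first 2036 nt held no peak. The 7 coding peaks then fell between codons 3291 and 4547 of PLEC-201, in the part that encodes plakin repeats. From 5' to 3' the first 4 of them stood close together, at log2 folds of 4.54 (codons 3291 to 3301), 4.09 (3403 to 3411), 3.68 (3481 to 3501) and 4.33 (3511 to 3518). The fifth, with a log2 fold of 3.49, lay at codons 4137 to 4152, and the last 2 at codons 4386 to 4398 (4.16) and 4538 to 4547 (4.02). These coding peaks differed by about a unit of log2 fold at most, with a median of 4.09. The remaining coding peak, in exon 27 (143927594 to 143927634), had a log2 fold of 5.22 and a −log10 p of 14.2. It lay above all 7 coding peaks of the last exon in both values.

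The 5 peaks of the PLEC 3'UTR lined up from the stop codon to the transcript end. The first, at 143916125 to 143916217, crossed the stop codon with 41 bases in coding sequence and 52 in the 3'UTR, and had a log2 fold of 3.80 and the highest −log10 p of the gene, 18.4. The second began 290 nt after the stop codon and had the lowest fold of the gene, 3.26. The next had a log2 fold of 4.76. The last 2 peaks stood at 5.64 and 5.09, with midpoints 202 and 79 nt before the transcript end. Thus the highest and the lowest fold of PLEC were both in its 3'UTR. The last 2 peaks both had a −log10 p of 15.7, a value shared by 29 peaks of the list. The sources do not state whether that value is a limit of the authors' computation. The place of 18.4 as the highest is therefore only as listed. Peaks covered 387 nt of that 3'UTR (37.6%) and 334 nt of PLEC coding sequence (2.27%). Widths were 49 to 103 nt in the 3'UTR and 24 to 62 nt in coding sequence.

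The intronic PLEC peak, 143937270 to 143937297, was the most 5' of the 14. It lay in intron 3 of PLEC-201, which has 908 nt, and its last base was 28 nt upstream of the next exon. Its midpoint was 41 nt upstream of the 3' splice site, and its log2 fold was 4.39 with a −log10 p of 7.40, the lowest of the gene. Of the 19 peaks of the 3 genes, 2 (10.5%, 95% Wilson interval 2.94 to 31.4%) were centred 10 to 60 nt before a 3' splice site, this one and, by the transcript KRT81-202 only, the second KRT81 peak. In the rest of the G4PID list 5 of 238 were (2.10%, 0.901 to 4.82%), and the difference was not tested. SF3B4, which contacts RNA near branch points, had 68.9% of its peaks centred 10 to 60 nt before a 3' splice site (2496 of 3623 in genes with such a site). None of these was in PLEC, which has 31 introns in its reference transcript. The nearest SF3B4 peak on the same strand was in PUF60, 94344 nt away. An SF3B4 peak in the list had to pass the authors' thresholds, so SF3B4 binding below them was not assessed.

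Between neighbouring PLEC peaks the gap ranged from 28 to 9635 nt, with a median of 305.0 nt, and 9 of 13 gaps were under 500 nt. With 13 exonic peaks PLEC had 0.853 per kb of transcript, which ranked at 13 among the 28 genes with 3 or more G4PID peaks, where the median was 0.774. By number of peaks it ranked at 3, level with MALAT1, and by transcript length also at 3. DHRS2, a gene for a dehydrogenase, had 4.17 exonic peaks per kb. The nuclear RNAs MALAT1 and NEAT1 had 2.06 and 0.704. The MALAT1 value is for a spliced reference transcript of 5340 nt and 4 exons, which held 11 of its 14 peaks. AHNAK encodes another giant protein from a single very long last exon of 18170 nt, and held 3 peaks in it, 0.160 per kb of transcript. Of the 25 other genes with 3 or more peaks and 2 or more exons, AHNAK and TNFRSF12A had as large a share of all their peaks in the last exon as PLEC. The median share was 13.3%. That share counts intronic peaks, and some of these genes had no exonic peak. Of exonic peaks alone, PLEC had 12 of 13 in the last exon. AHNAK (3), TNFRSF12A (3), MAFK (5), VMP1 (3), FOSL1 (2) and MIR222HG (1) had all of theirs there. Others had lower shares, such as DHRS2 with 2 of 7 and MMP3 with 1 of 5.

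**Figure D3:**
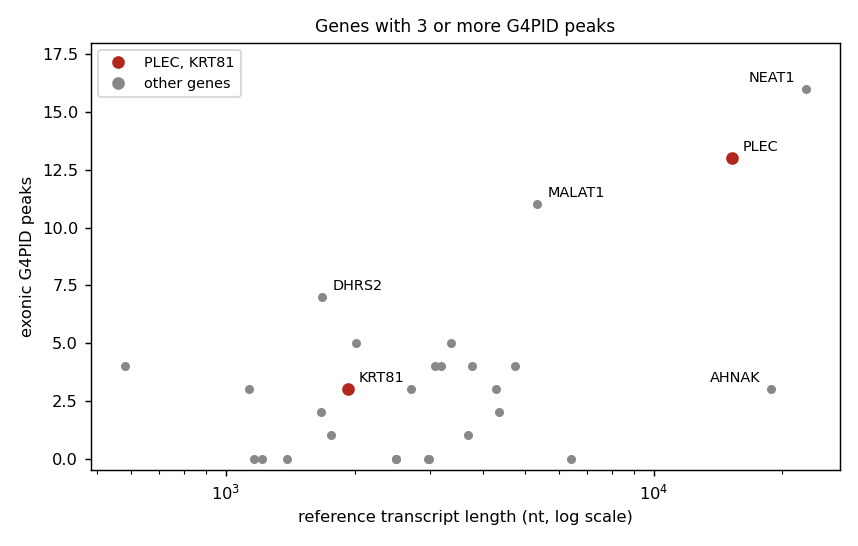
Exonic G4PID peaks on the vertical axis against reference transcript length in nt on a logarithmic horizontal axis, for the 28 genes with 3 or more G4PID peaks. PLEC has 13 exonic peaks on 15249 nt, and AHNAK has 3 on 18787 nt.

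KRT81 lies on the minus strand of chromosome 12, 52285913 to 52291534, with 9 exons and 1929 nt in its reference transcript. Its 3 peaks fell within 270 nt, between 74.3% and 84.7% of the transcript, and 0 lay in the 8 exons before the last. The first, 52286386 to 52286431, covered codons 448 to 463 at a log2 fold of 5.80 and a −log10 p of 11.3. The second, 52286288 to 52286325, covered codons 483 to 495 at a log2 fold of 5.92. The third, 52286162 to 52286254, began at the base just after the stop codon and also had 5.92. Those with 5.92 shared the same −log10 p of 12.3, and this pair of values was held by 5 peaks of the list. All 3 folds were above the highest PLEC fold of 5.64. In the shorter transcript KRT81-202 an intron is spliced out of this exon, which puts the midpoint of the second 16 nt before an annotated 3' splice site, and the third peak lies beyond the annotated end of KRT81-202.

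FLNC lies on the plus strand of chromosome 7, 128830377 to 128859274, with 48 exons and 9188 nt in FLNC-201. Its 2 peaks had the highest folds of the 3 genes and were 8871 nt apart. The first, 128849645 to 128849685, had a log2 fold of 6.43 and stood in intron 30, which has 397 nt. It began at base 67 of the intron and ended 291 nt before the next exon. The second, 128858557 to 128858633, began 34 nt after the stop codon, with a log2 fold of 6.26. Both had a −log10 p of 15.7, the most frequent value of the list, which 29 peaks shared. By its highest fold FLNC ranked at 9 among 127 genes with a G4PID peak, KRT81 at 20 and PLEC at 29. The 5.92 of KRT81 was level with that of AXL and KLLN, and genes of equal fold were ordered by name.

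**Figure D4:**
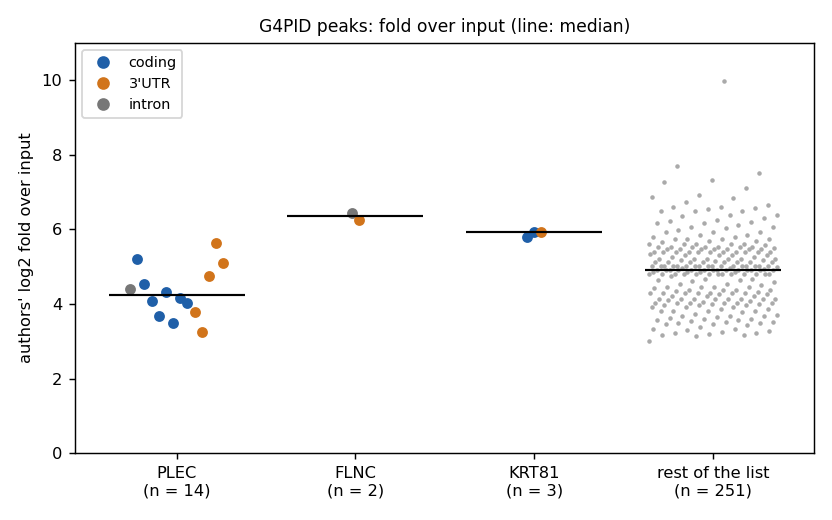
The authors' log2 fold over input for each G4PID peak in PLEC, FLNC and KRT81, coloured by region, and for the 251 peaks of the rest of the list, with medians as lines. The medians are 4.24 for PLEC, 6.34 for FLNC, 5.92 for KRT81 and 4.92 for the rest.

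PLEC had a median log2 fold of 4.24 over its 14 peaks and a range from 3.26 to 5.64, and 3 of its peaks reached 5. All 5 peaks of FLNC and KRT81 did, as did 119 of the 251 peaks of the rest. The number of PLEC peaks in the last exon rests on peaks below that level, since with a log2 fold of at least 5 PLEC kept 3 peaks, 2 of them in the last exon. Many peaks of different genes held equal values. The 14 PLEC folds were all different from each other, but 7 of the 14 pairs of fold and p also occurred in other genes. As an example, the PLEC peak at codons 4137 to 4152 shared its log2 fold of 3.49 and its −log10 p of 10.5 with the peak of FLNA.

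Whether the peaks carried guanine-rich sequence was described next on the spliced transcripts, with 50 nt added on either side of a peak. Sequence was at hand for 17 of the 19 peaks, and the 2 intronic ones were not searched. The quadruplex motif (4 runs of 3 or more G with loops of 1 to 7 nt) was in 0 of the 17 windows, against 8 of 137 in the rest of the list. The rest differs in peak width and region, and the difference was not tested. The PLEC reference transcript held the motif nowhere in its 15249 nt, nor did that of KRT81. The FLNC one held it once, at nt 6928 to 6956, 1570 nt from the midpoint of the 3'UTR peak. With runs of only 2 G allowed, 8 of the 17 windows had a match, on transcripts where such matches are frequent, 10.0 per kb in PLEC, 6.42 in FLNC and 6.22 in KRT81.

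The G4Hunter score rates G runs as positive and C runs as negative over 25 nt. It reached 1.5 in 1 of the 17 windows (5.88%), that of the first KRT81 peak at 1.76. Inside the peak itself the highest score was 0.48, in the first KRT81 stretch printed above, so the 1.76 needs bases of the flank, and without flanks 0 windows reached 1.5. In the rest of the list 33 of 137 windows reached it (24.1%). In coding windows this was 1 of 10 here against 8 of 52 in the rest (15.4%). In 3'UTR windows it was 0 of 7 against 8 of 34 (23.5%). Peaks of the rest were also wider, with a median of 61 nt over all peaks against 46 nt, and a wider window reaches the score more often. The difference was not tested. The exon 27 peak of PLEC came next at 1.48, and 5.97% of all windows of the same width on the PLEC transcript scored as high or higher. The other PLEC windows lay between 0.20 and 1.28. For the 2 lowest, both in the 3'UTR at 0.20, 99.9% of equal windows on the transcript scored as high or higher. PLEC had 67.0% GC over its transcript and a median of 66.9% in its windows. The rest of the list had a median of 58.2%.

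On the C side, low scores were more frequent in 3'UTR windows than in coding ones within these genes, a difference that was not tested. A score of −1.5 or lower, which runs of C in the RNA give, was found in 6 of the 17 windows, and in 3 without flanks. With flanks these were 5 of the 7 windows of the 3'UTR and 1 of the 10 of coding sequence. The 3'UTR windows were FLNC peak 2 at -1.96, where the lowest score inside the peak itself was -0.68, PLEC peaks 11 to 13, counted from the 5' end, at -1.84, -1.68 and -1.64, and KRT81 peak 3 at -1.56. The coding one was PLEC peak 8, also at -1.84. With flanks, 3'UTR windows had 149 to 203 nt and coding ones 124 to 162 nt, and a wider window reaches such a score more often. Of all windows of equal width on the same transcript, 4.83 to 7.10% reached it in PLEC, 6.42 to 9.79% in KRT81 and 15.7% in FLNC. The median C content was 40.4% in 3'UTR windows and 31.3% in coding ones, and the ranges overlapped (34.7 to 44.3% and 24.8 to 43.4%). In the rest of the list the score was reached in 13 of 34 windows of the 3'UTR (38.2%) and in 19 of 52 coding ones (36.5%). The PLEC 3'UTR as a whole has 37.9% C and its coding sequence 30.7%, and that of KRT81 36.8% and 28.9%, but that of FLNC 30.4% and 30.6%. The antisense form of the quadruplex motif, 4 runs of at least 3 C, stood in 2 of the 17 windows, those of PLEC peaks 12 and 13, and in 16 of 137 in the rest of the list, which is a similar share.

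**Figure D5:**
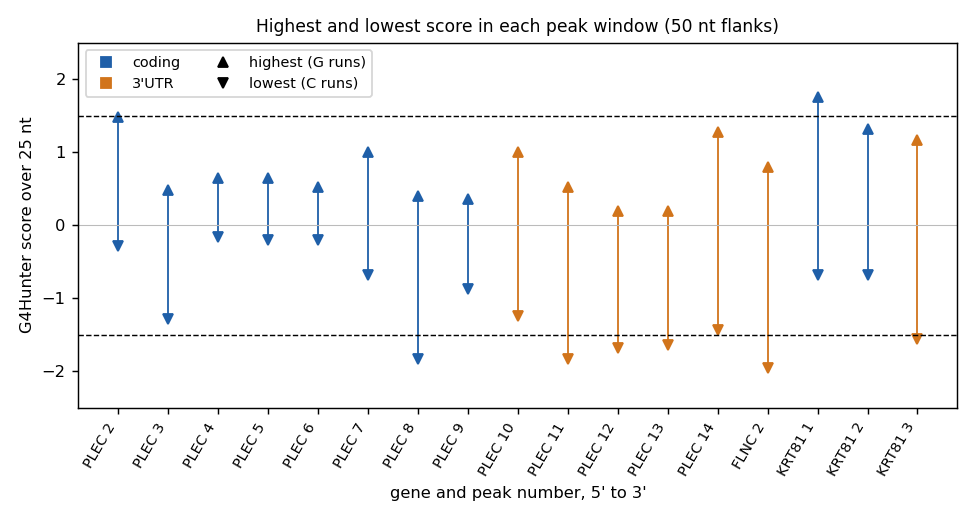
Highest and lowest G4Hunter score over 25 nt in each of the 17 searched windows (peak with 50 nt flanks), numbered 5' to 3' within each gene and coloured by region, with dashed lines at 1.5 and -1.5. The first KRT81 window alone passes the upper line, and 5 of 7 windows of the 3'UTR pass the lower one.

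Parts of some peaks are not unique among transcripts. Of the 53 runs of 25 nt in the FLNC 3'UTR peak, 8 occur exactly in annotated transcripts of 104 other genes, and each of these 8 includes at least 19 bases of the 22-nt AC repeat printed above. An AC repeat of 8 or more units, searched in sense and as GT in antisense, was in 1 of 154 searchable G4PID peaks in sense, the FLNC one, and in 0 in antisense. Of windows of the same 77 nt, 0.746% on the FLNC transcript and 0.0574% on the reference transcripts of all genes with a G4PID peak hold it. The remaining 45 runs of the peak were found in no other gene. In PLEC, 5 of the 22 runs of 25 nt in peak 7, at codons 4137 to 4152, occur in EPPK1, which encodes epiplakin, a protein made of plakin repeats, with 5 mismatches over 46 nt. EPPK1 had 0 G4PID peaks. No run of the other searched PLEC peaks was found in another gene, but peak 4 offers only 1 run, peak 6 is too short for any, and the intronic peak 1 was not searched. The sources do not state how the authors placed reads that fit several loci.

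KRT81 has close relatives among the hair keratins. None of the 105 runs of 25 nt in its peaks occurs in another gene. The best ungapped match of the first peak in KRT83 had 7 mismatches over 46 nt (84.8% identity), and that of the second had 14 over 38. The 3'UTR peak matched KRT83 at 43.0% and KRT86 at 45.2%. KRT86 is transcribed from the opposite strand across KRT81, so the KRT81 peaks lie antisense to a KRT86 intron. The 3'UTR peak of FLNC lies in the same way antisense to an intron of FLNC-AS1. KRT83, KRT86 and FLNC-AS1 had 0 peaks in either list.

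Related cytoskeletal genes were then counted. Over 8 lists with 113 genes, 4 genes (3.54%) had a G4PID peak, against 0.497% of all protein-coding genes. That share is raised by the choice of genes, since 3 of the 4 are those described here, chosen for their peaks, and 1 listed gene remains without them. That gene was FLNA, the widely expressed filamin, with 1 peak in the 3'UTR at a log2 fold of 3.49. Of the listed plakins, which leave out EPPK1, 1 of 6 had a G4PID peak (PLEC). Of the filamins 2 of 3 had one, and of the type II keratins 1 of 26 (KRT81). None of 28 type I keratins, of 13 other intermediate filament genes, of 8 plectin partners such as the hemidesmosome integrin ITGB4, or of 13 filamin C partners and Z-disc genes had one. With SF3B4, 5 of the 113 genes (4.42%) had a peak, against the 8.89% of all protein-coding genes. These were VIM, which encodes vimentin (highest log2 fold 4.53), LMNB2, which encodes a nuclear lamin (3.82 over 3 peaks), ACTG1, which encodes a cytoplasmic actin (3.88), the spectrin gene SPTAN1 (3.65) and ANLN, which encodes the actin-binding anillin (3.88). RNA amount was not measured, and many keratin and muscle genes may not be expressed in this line, so absence from a list is not shown to be absence of binding.

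By the shares of peaks in coding sequence, UTR, noncoding exon and intron, the genes most like PLEC among 27 others with 3 or more peaks were KRT81 (distance 0.10, where 0 is equal and 1 is disjoint), AMIGO2 and MT2A (0.14 each). Those most like KRT81 were CLU (0.08), PLEC (0.10) and MMP3 (0.13), and those most like FLNC, which has only 2 peaks, were VMP1 (0.07), OTUB1 and SQSTM1 (0.17 each). With 3 to 5 peaks in most of these genes, 1 peak moves such a distance by a large part of its scale.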

How the data were processed

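RNA recovered with G4PID and SF3B4 was measured by eCLIP in HEK293T cells. The tools named, per the submitters' processing notes, are cutadapt (version 3.4) and STAR (version 2.7.0d), and the builds are hg19 and hg38. No peak caller, filter or joining of replicates is given in the sources used. As deposited, each antibody has 1 list with no header. The −log10 p that the authors computed for each peak is taken to be in the fourth column, judged from column order and range. The log2 fold over input that the authors computed is taken to be in the fifth. Depth is unknown, and with no value per library no test was made.

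Peaks were placed by midpoint on GENCODE release 29 (GRCh38), protein-coding genes and exons first, and classed as coding before UTR, noncoding exon and intron over the basic transcripts. Stop codons count as coding. Sequence came from GENCODE transcripts. Python 3.11.15 ran the scripts, with scipy 1.17.1 for Wilson intervals, and matplotlib 3.10.9 drew the figures. The functions passed 13 of 13 tests with known answers. Genes were named by a rule: the 3 members, listed genes with a peak, up to 3 most alike, and genes sharing peak sequence or lying on the other strand. Members and lists were chosen with earlier results of these data known. EPPK1 and the comparison genes AHNAK, TNFRSF12A, MAFK, FOSL1, MIR222HG, DHRS2, MALAT1 and NEAT1, and the AC repeat, were chosen after their values were seen. Alternatives changed the assignment, threshold, region rule, transcript, flank and motif.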

Additional observations from a re-analysis of the deposited data

How the results depend on the processing

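Of 55 alternatives to 14 counts, 42 stayed within 1.5 times the reported count and 13 did not. Some of the 42 could not move, such as 0 SF3B4 peaks under a stricter threshold or 0 windows with the motif without flanks. The tally is therefore not a measure of stability. With a log2 fold of at least 5, PLEC kept 3 peaks and 2 in its last exon, the 3 genes together kept 3 coding, 4 3'UTR and 1 intronic peak, and the listed cytoskeletal genes with an SF3B4 peak fell to 0. With a −log10 p of at least 10, PLEC kept 9 peaks. Windows with a G4Hunter score of at least 1.5 numbered 0 without flanks, 4 with 100 nt flanks and 4 at a threshold of 1.2, against 1 as reported, and those at -1.5 or lower numbered 3 without flanks, against 6. Runs of 2 G gave 8 windows with a motif, against 0. On the reference transcripts alone 1 peak, against 2, lay 10 to 60 nt upstream of a 3' splice site, since the second needs the splice site of KRT81-202. A stricter threshold, shorter windows and fewer transcripts can only lower these counts or leave them equal. The score threshold of 1.2, 100 nt flanks and runs of 2 G can only raise them or leave them equal. Joining peaks under 50 nt apart left 12 peaks in PLEC and 2 in KRT81. Counting introns before exons gave 9 coding and 3 intronic peaks, and counting any overlap, the only alternative that could raise the 0 SF3B4 peaks, also gave 0. No paired analysis was possible because there is 1 list per antibody with no replicate number, and for the same reason no replicate could be left out. Unknown depth limits all counts: peaks below the authors' thresholds are not in the lists.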
